A study of Mus musculus with 12 samples.

Results

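Lactoferrin knockout mice were compared with wild-type mice that had received the vehicle phosphate-buffered saline (PBS) and no lipopolysaccharide. The comparison takes the 3 libraries labelled lactoferrin knockout PBS and the 3 labelled wild type PBS, 6 of the 12 libraries of the series. All mice were of the strain C57BL/6J, and all were injected into the peritoneal cavity. The other 6 libraries, 3 of each genotype injected with LPS, a component of the outer membrane of Gram-negative bacteria, enter here to share the estimate of spread and for the same genes under LPS. RNA was taken from the cells washed out of the peritoneal cavity, with no sorting named, so each level is a mean over whatever cells the lavage held. The design text states the aim as the expression change that lactoferrin deficiency brings in acute LPS inflammation, and the PBS groups are its baseline. The knockout allele and its target exons, the age of the animals, the amount of LPS and the hours from injection to lavage were not stated in the labels. The titles of the knockout libraries name wild-type mice, whereas their codes, descriptions and characteristics name the knockout, and the latter decided the group. The labels do not say that each library came from a separate mouse, so the p-values measure the spread between libraries, which may be technical.

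Lactoferrin is an iron-binding glycoprotein that neutrophils store in their secondary granules and that epithelia release into milk, tears and mucus. It binds free iron and also LPS. The unstimulated peritoneal cavity holds mainly large resident macrophages and B cells, with fewer T cells, mast cells and small macrophages. Immediate early genes, which recur below, encode transcription factors and signalling proteins that a stimulus switches on without new protein synthesis.

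Ltf, the gene of lactoferrin (chr9:111019271-111042767 in GRCm38, plus strand), was at 1.89, 1.23 and 1.16 FPKM in wild type and 0.183, 0.258 and 0.212 FPKM in the knockout. FPKM is the number of fragments per kilobase of transcript, scaled to the mapped fragments of the library. The files name no unit for the deposited values, which were read as FPKM from their range and from the tools in the submitters' processing notes. All 3 knockout libraries lay below all 3 wild-type libraries, at 15.3% of the wild-type mean, although none was at 0. The difference was -0.98 on the log2(FPKM + 1) scale, used for every difference below, and 3 libraries against 3 cannot give less than p = 0.1 (two-sided exact permutation), the value reached. The fit across genes took only those with a mean of 1 FPKM or more over the 12 libraries, and Ltf, with 0.582 FPKM, did not enter it. Whether the remaining reads came from exons outside the deleted part was not tested. Under LPS Ltf was at 0.176, 1.33 and 0.275 FPKM in wild type and 0.117, 0.0832 and 0.0699 FPKM in the knockout. The knockout was again lower without overlap, but wild-type LPS replicate 1 lay below all 3 knockout PBS libraries. Across treatments the level of Ltf therefore did not separate the genotypes.

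The totals of the 12 libraries were 343874 to 388129 FPKM, with 13921 to 14574 genes above 0. Read totals are not given and whole reads could not be recovered from the low values, so the depth is unknown. The 3 knockout PBS libraries were alike, with Spearman correlations of 0.987 to 0.988 between them. Among the wild-type PBS libraries the correlations were 0.975, 0.949 and 0.934, and replicate 3 took part in both lower values. Replicate 3 was also further from the knockout libraries (0.944 to 0.947) than replicate 1 was (0.978 to 0.989). Under LPS the correlations were 0.985 to 0.991 within wild type and 0.973 to 0.981 within the knockout. The spread behind the PBS p-values is pooled over all 4 groups and so is not that of wild-type PBS alone. Erythroid markers summed to 341 FPKM in wild-type PBS replicate 2, against 17.2 to 54.5 FPKM in the other 5 PBS libraries. Of the Y-linked genes, 4 were tested, and their groups overlapped in each case.

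Of the 9841 genes tested, 11 (0.112%) passed at a Benjamini-Hochberg adjusted p under 0.05 in limma, a linear model with moderated variances fitted to all 12 libraries. Lower in the knockout were 9 of them (0.0915%), among them Egr2, Csrnp1, Hbegf, Egr1, Ch25h, Pdcd4, Cited2 and Klrd1. The 2 higher (0.0203%) were Arntl and Dagla. An unadjusted p under 0.05 was reached by 897 genes. Of the 9 lower genes, 4 are of the immediate early list (Egr2, Csrnp1, Hbegf and Egr1). The count depended on single libraries. It was 39 without wild-type PBS replicate 1, 6 without replicate 2 and 31 without replicate 3. Without knockout PBS replicate 1 it was 7, and it was 0 without knockout replicate 2 or 3, where 480 and 641 genes had an unadjusted p under 0.05 in limma. All 11 genes kept their direction in each of these 6 fits. Egr2 and Csrnp1 passed in 4 of the 6, Hbegf and Cited2 in 3, Arntl, Ch25h, Dagla, Klrd1 and Pdcd4 in 2 and Egr1 in 1. Without replicate 3 of wild type, the library that stood apart, 10 of the 11 passed. Without replicate 2 of both groups, each the highest of its PBS group in erythroid markers, 1 gene passed and none of the 11 did. Those markers summed to 341 FPKM in the wild-type library and 54.5 FPKM in the knockout library. The latter was near wild-type replicates 1 and 3 (41.5 and 47.4 FPKM). With only the 6 PBS libraries in the fit, 0 genes passed (smallest adjusted p = 0.223 by limma).

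Egr2, a zinc-finger transcription factor of macrophages and lymphocytes (chr10:67535475-67542188), was at 6.26, 5.39 and 4.82 FPKM in wild type and 2.31, 1.78 and 1.35 FPKM in the knockout. The knockout mean was 33.0% of the wild-type mean, and the highest knockout library lay far under the lowest wild-type library. Its group means were 5.49 and 1.81 FPKM under PBS, and 0.442 FPKM in wild type and 0.570 FPKM in the knockout under LPS. Egr2 thus reached the minimum mean for testing through the wild-type PBS libraries, although it also passed with no filter on low values. Egr2 fell by a difference of -1.21 ± 0.13 (SE; adjusted p = 0.0111 by limma). Csrnp1, a nuclear protein with transcription-activating function (chr9:119971163-119984658), was at 16.0, 14.9 and 13.5 FPKM in wild type and 8.04, 6.30 and 6.35 FPKM in the knockout, a difference of -1.01 ± 0.12 (SE; adjusted p = 0.0111 by limma). Knockout replicate 1 was the highest of its group in both genes, and for neither did the groups overlap. Egr1, the relative of Egr2 that many growth and stress signals induce, was at 27.8, 23.0 and 25.5 FPKM in wild type and 14.5, 13.97 and 10.4 FPKM in the knockout. It fell by a difference of -0.93 ± 0.14 (SE; adjusted p = 0.0411 by limma), to 50.9% of the wild-type mean. Hbegf, a membrane-anchored ligand of the epidermal growth factor receptor that is shed on activation, was at 2.48, 1.66 and 1.88 FPKM in wild type and 0.495, 0.566 and 0.553 FPKM in the knockout. The knockout libraries were close together, at 26.8% of the wild-type mean, and the difference was -0.96 ± 0.13 (SE; adjusted p = 0.0275 by limma).

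Promoter sequence of the genes that passed was read from the RefSeq windows of GRCm38.p6, which run from 250 bases before to 50 bases after a start site. Windows were read for 6 of the 11 genes (Egr2, Csrnp1, Arntl, Ch25h, Pdcd4 and Cited2). No window was read for Egr1, Hbegf, Dagla and Klrd1, which does not mean that RefSeq holds none for them. The immediate early genes Egr1 and Hbegf therefore have no motif reading here. The windows were searched on both strands for the CArG box, which serum response factor binds, the cyclic AMP response element TGACGTCA, the AP-1 site TGANTCA, the EGR site GCGNGGGCG, the E-box CACGTG and the ROR element core AGGTCA. Of all 32851 windows in the table, 1.63% held a CArG box, 1.79% the cyclic AMP response element, 7.81% an AP-1 site, 5.55% an EGR site, 7.15% an E-box and 16.3% the ROR core. The 3 stretches below show, for the immediate early genes whose windows were read and for Ch25h, the 250 bases before a start site, with the matches in capitals. For a gene with several windows, the one shown held the most CArG boxes and then the most matches in these bases. The choice therefore favours a match, and the shares over all windows were not chosen in that way.
Egr2 (chr10:67537316-67537565, plus strand): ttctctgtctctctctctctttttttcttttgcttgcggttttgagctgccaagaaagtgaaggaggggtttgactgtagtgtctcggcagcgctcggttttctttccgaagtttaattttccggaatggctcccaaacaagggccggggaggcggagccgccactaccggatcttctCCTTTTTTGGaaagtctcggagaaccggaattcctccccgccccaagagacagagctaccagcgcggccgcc
Csrnp1 (chr9:119983024-119983273, minus strand): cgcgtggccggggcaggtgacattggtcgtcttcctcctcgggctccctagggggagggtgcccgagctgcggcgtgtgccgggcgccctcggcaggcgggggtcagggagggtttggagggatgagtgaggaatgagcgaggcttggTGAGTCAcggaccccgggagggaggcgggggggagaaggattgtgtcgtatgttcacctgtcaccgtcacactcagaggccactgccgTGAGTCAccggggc
Ch25h (chr19:34475149-34475398, minus strand): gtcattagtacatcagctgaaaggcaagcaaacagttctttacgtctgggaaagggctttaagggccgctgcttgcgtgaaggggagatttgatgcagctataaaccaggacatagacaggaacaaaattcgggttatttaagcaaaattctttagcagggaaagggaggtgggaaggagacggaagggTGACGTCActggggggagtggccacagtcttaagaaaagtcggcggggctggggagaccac
In Egr2 the capitals mark a CArG box at -72 to -63 from the start site, and 4 of its 5 windows held one. The Egr2 windows that begin at 67537619, 67537620 and 67537680 overlap, and the window at the first start held an E-box and no CArG box. The Egr2 and Csrnp1 start sites shown lie within the annotated spans of the genes, after the first start. In Csrnp1 the capitals mark a pair of AP-1 sites, at -102 to -96 and -14 to -8, in 1 of its 4 windows, another of which held a ROR core. In Ch25h they mark a cyclic AMP response element at -61 to -54. Cited2 held an E-box at -153 to -148, 1 of the 2 Arntl windows held the ROR core, and the 250 bases before the Pdcd4 start held none of these motifs. A match is a description of the letters, and binding there was not measured.

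**Figure D1:**
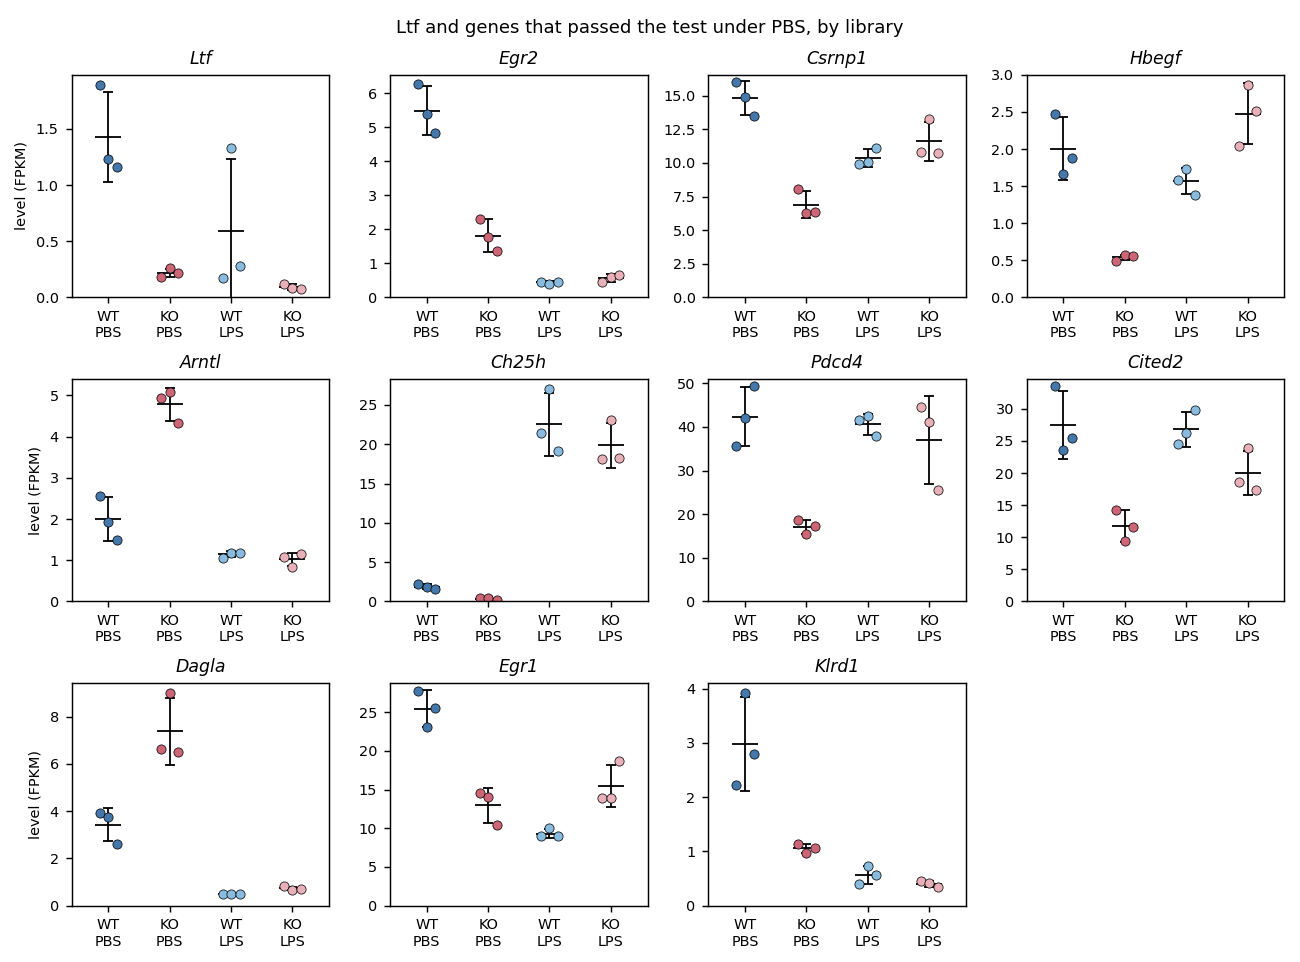
Level in FPKM (linear axes from 0) of Ltf and of 10 genes that passed under PBS, in the 12 libraries; points are libraries, horizontal bars means and vertical bars SD (n = 3), drawn no lower than 0, with WT for wild type and KO for knockout. In every panel the PBS groups do not overlap, and the Egr1 groups stand in the opposite order under LPS.

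The immediate early list held 38 genes, of which 36 were tested. The 4 named above passed, all lower, against 0.0915% of all tested genes. This list and those below were chosen with earlier results of these data known, so their shares are descriptions and not tests. In 9 of the 36 the groups did not overlap with the knockout lower, against 7.34% of all tested genes (722), and in none with the knockout higher, against 6.04% (594). These totals moved with the scaling, to 589 lower and 809 higher with median-of-ratios factors and to 528 and 948 with the upper quartile, while the list had 9 and 0 with median-of-ratios factors and 11 and 0 with the upper quartile. The median difference of the list was -0.38, and that of all tested genes -0.02. Beside the 4, the groups were apart for Rgs1, Maff, Plk3, Myc and Btg2. Rgs1, a brake on G protein signalling by chemokine receptors, was at 2.97, 5.37 and 4.15 FPKM in wild type and 1.29, 1.48 and 1.70 FPKM in the knockout, a difference of -1.03 ± 0.22 (SE; adjusted p = 0.167 by limma). Plk3, a stress-responsive kinase, was at 26.5, 28.6 and 20.5 FPKM in wild type and 16.1, 15.6 and 12.5 FPKM in the knockout, with a difference of -0.73 ± 0.16 (SE; adjusted p = 0.178 by limma). For Myc, a growth-promoting transcription factor, the levels were 65.5, 47.7 and 47.5 FPKM in wild type and 42.0, 30.2 and 36.6 FPKM in the knockout and the adjusted p = 0.456 by limma. Neither Rgs1, Plk3 nor Myc passed.

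The AP-1 genes of the list did not pass. Fos, which forms AP-1 with Jun proteins, was at 49.5, 81.0 and 16.7 FPKM in wild type and 39.8, 20.3 and 31.3 FPKM in the knockout, with wild-type replicate 3 the lowest of all 6. Jun was at 68.8, 89.1 and 33.0 FPKM in wild type and 74.1, 61.8 and 56.5 FPKM in the knockout, and its groups overlapped as well. Those of Junb, at 224, 274 and 162 FPKM in wild type and 217, 175 and 155 FPKM in the knockout, overlapped through the same library. The groups of Egr3, a further member of the Egr family, overlapped with a difference of -0.27 ± 0.28 (SE). In 7 of the 36 genes the difference was above 0, against 4448 of all 9841 tested genes. The largest was in Nfkbiz, an inducible regulator of NF-kB (0.56 ± 0.23, SE; adjusted p = 0.502 by limma). The list's median was -0.54 without wild-type replicate 3 and -0.21 without replicate 2. Of the 9 genes on the list of Egr targets and corepressors, 8 were tested, and only Egr1 and Egr2 themselves passed (0.0915% of all tested genes passed as lower). Nab2, a corepressor that Egr proteins induce and that binds them, was at 26.2, 28.7 and 17.5 FPKM in wild type and 19.6, 17.0 and 15.7 FPKM in the knockout, where wild-type replicate 3 lay among the knockout libraries. Tgfb1, the cytokine gene on that list, was at 126, 124 and 114 FPKM in wild type and 96.2, 104 and 88.2 FPKM in the knockout, without overlap of the groups (-0.33 ± 0.11, SE; adjusted p = 0.386 by limma).

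**Figure D2:**
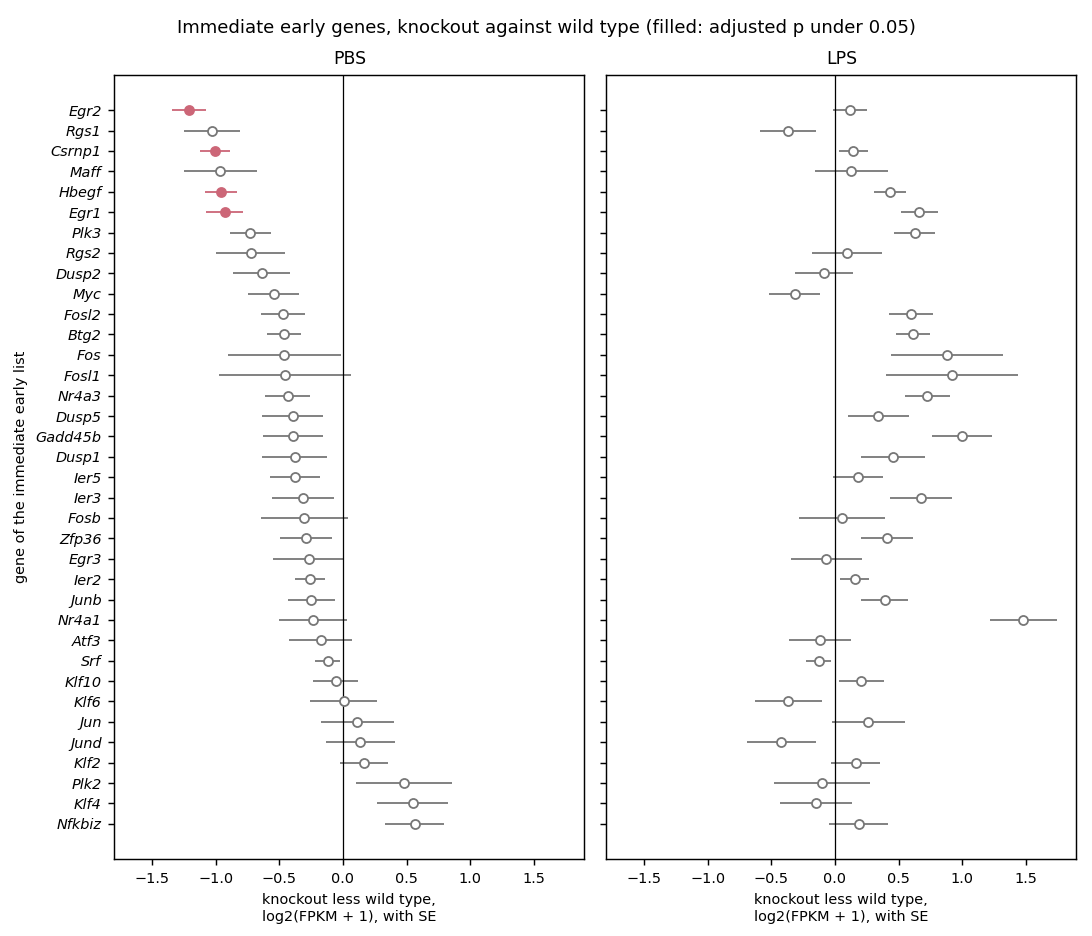
Difference between knockout and wild type on the log2(FPKM + 1) scale for the 36 tested immediate early genes, under PBS (left) and LPS (right); points are limma estimates, bars SE, and filled points passed at an adjusted p under 0.05. The 4 filled points, all under PBS, lie between -1.21 and -0.93, and none is filled under LPS.

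Pdcd4 encodes a protein that blocks the translation initiation helicase (chr19:53892231-53929860), and it was at 35.7, 42.1 and 49.3 FPKM in wild type and 18.6, 15.4 and 17.3 FPKM in the knockout. No knockout library reached the level of any wild-type library, and Pdcd4 fell to 40.4% of the wild-type mean, a difference of -1.25 ± 0.19 (SE; adjusted p = 0.0393 by limma). It had the highest level of the 11 genes in wild type. Its target Eif4a1 was at 373, 376 and 231 FPKM in wild type and 396, 425 and 366 FPKM in the knockout, with overlap through knockout replicate 3. Cited2, a coregulator that competes with hypoxia-inducible factor for a pair of coactivators (chr10:17723218-17725674), was at 33.5, 23.6 and 25.5 FPKM in wild type and 14.3, 9.44 and 11.6 FPKM in the knockout. Cited2 fell to 42.8% (-1.16 ± 0.17, SE; adjusted p = 0.0393 by limma). The genes of the coactivators themselves, Crebbp and Ep300, differed by 0.00 ± 0.11 and 0.01 ± 0.10 (SE). Hif1a, the hypoxia-inducible factor subunit, differed by -0.11 ± 0.24 (SE), with wild-type replicate 3 lowest at 34.5 FPKM.

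Dagla, the diacylglycerol lipase that makes a main endocannabinoid (chr19:10245265-10304877), was at 3.91, 3.75 and 2.63 FPKM in wild type and 6.62, 9.004 and 6.51 FPKM in the knockout. It rose to 215% of the wild-type mean, a difference of 0.92 ± 0.14 (SE; adjusted p = 0.0411 by limma), with knockout replicate 2 the highest. Its relative Daglb was at 7.31, 7.89 and 13.2 FPKM in wild type and 7.13, 5.91 and 6.49 FPKM in the knockout, a difference of -0.44 ± 0.18 (SE; adjusted p = 0.502 by limma) that did not pass. Of the 12 genes on the endocannabinoid list 8 were tested, and Dagla alone passed (0.0203% of all tested genes passed as higher). Cnr2, the cannabinoid receptor of leukocytes, had overlapping groups and a difference of -0.26 ± 0.23 (SE).

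Arntl, the clock activator also called Bmal (chr7:113207465-113314126), was at 2.56, 1.93 and 1.49 FPKM in wild type and 4.93, 5.09 and 4.32 FPKM in the knockout. The lowest knockout library lay well above the highest wild-type library, and Arntl rose to 239.7% of the wild-type mean (0.96 ± 0.13, SE; adjusted p = 0.0275 by limma). Arntl with Clock drives the E-box genes of the circadian clock, among them Per, Cry, Nr1d, Dbp and Tef genes, and the Nr1d proteins in turn repress Arntl through ROR elements. Nr1d1, which encodes that repressor, was at 5.96, 5.00 and 21.5 FPKM in wild type and 1.51, 3.37 and 3.93 FPKM in the knockout. Every knockout library was lower than every wild-type library, but wild-type replicate 3 was several times above the others of its group, and the difference of -1.37 ± 0.43 (SE) did not pass (adjusted p = 0.386 by limma). The E-box targets Dbp and Tef showed the same library on top. Dbp was at 1.46, 0.983 and 16.1 FPKM in wild type and 1.07, 0.686 and 1.11 FPKM in the knockout, so wild-type replicate 1 was just above and replicate 2 among the knockout libraries. Tef was at 5.68, 4.57 and 15.02 FPKM in wild type and 2.81, 2.76 and 4.24 FPKM in the knockout, and its groups did not overlap. Clock, the partner of Arntl, was at 5.30, 6.06 and 4.78 FPKM in wild type and 6.55, 6.32 and 6.13 FPKM in the knockout, with no overlap and a difference of 0.21 ± 0.10 (SE; adjusted p = 0.550 by limma).

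Of the 23 genes on the clock list 17 were tested. Only Arntl passed (0.0203% of all tested genes passed as higher). The groups did not overlap in 2 genes with the knockout higher (Arntl and Clock; 6.04% of all tested genes) and in 6 with it lower (Nr1d1, Tef, Bhlhe41, Cry2 and Bhlhe40 among them; 7.34%). With values rescaled by the upper quartile these counts were 3 and 4. The median difference was -0.34, and -0.32 without wild-type replicate 3. Without that library, in which Nr1d1 and Dbp were highest, Arntl differed by 0.84 (adjusted p = 0.0257 by limma). Over the 6 fits that left out 1 PBS library, Arntl differed by 0.84 to 1.09. It passed in 2 of them, with an adjusted p of up to 0.184 by limma. The period genes Per1 and Per2 had overlapping groups, with differences of -0.48 ± 0.22 and -0.32 ± 0.32 (SE). The labels give no hour of collection, and whether it was the same for all libraries was not tested.

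**Figure D3:**
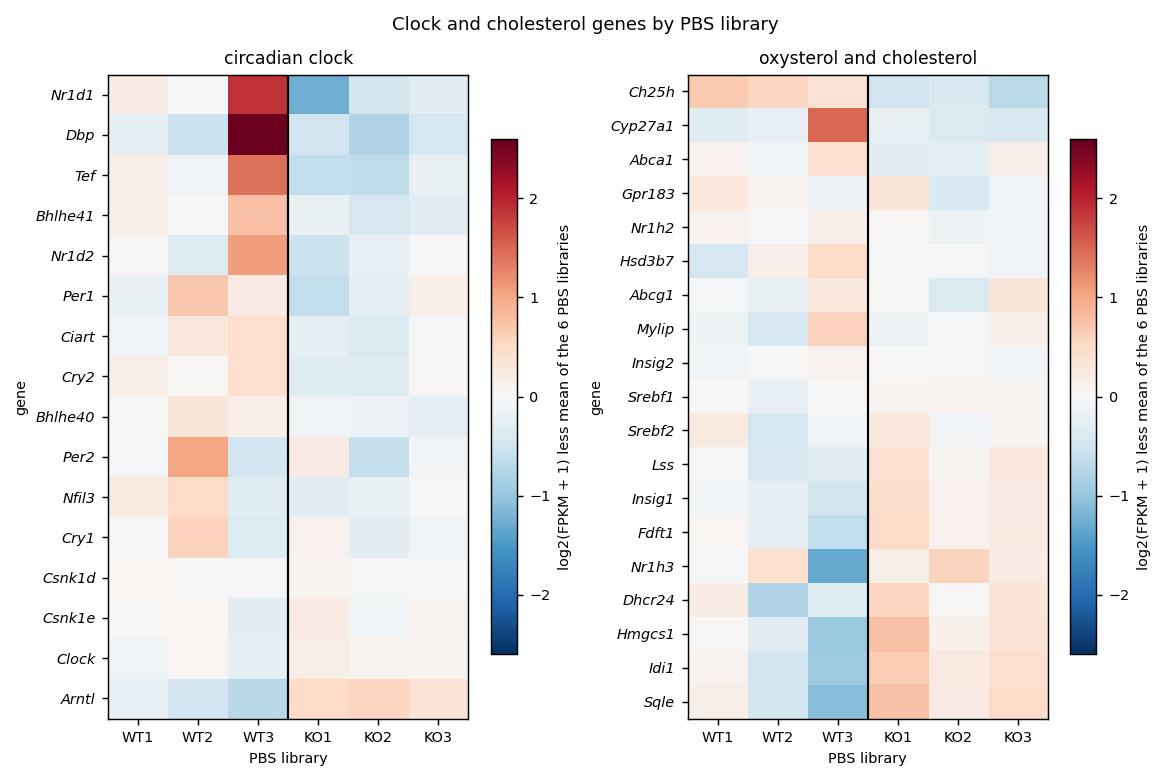
Level of tested clock genes (left, 16 genes) and oxysterol or cholesterol genes (right, 19 genes) in the 6 PBS libraries, as log2(FPKM + 1) less the gene's mean over those libraries; red is above and blue below that mean, and the black line parts wild type (WT) from knockout (KO). Arntl is above its mean in the 3 knockout libraries, Nr1d1, Dbp and Tef are highest in wild-type replicate 3, and Sqle, Idi1 and Hmgcs1 are lower in each wild-type library than in each knockout library.

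Ch25h, the hydroxylase that makes an oxysterol from which the ligand of the B cell guidance receptor Gpr183 is formed (chr19:34473778-34475164), was at 2.17, 1.85 and 1.56 FPKM in wild type and 0.396, 0.503 and 0.214 FPKM in the knockout. The knockout libraries were all far below the lowest wild-type library, at 19.96% of the wild-type mean, and Ch25h fell by a difference of -1.06 ± 0.15 (SE; adjusted p = 0.0275 by limma). These levels were low, and the added 1 FPKM shrinks the difference. Gpr183 itself had overlapping groups (-0.15 ± 0.23, SE).

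The oxysterol and cholesterol list held 22 genes, of which 21 were tested and Ch25h alone passed (0.0915% of all tested genes passed as lower). In 8 of the 21 the groups did not overlap with the knockout higher, against 6.04% of all tested genes. Among them were Sqle, Idi1, Hmgcs1, Fdft1 and Lss, enzymes of cholesterol synthesis, and Insig1 and Srebf1, which take part in its control. Sqle, squalene epoxidase, was at 14.1, 8.78 and 5.28 FPKM in wild type and 21.9, 14.9 and 17.8 FPKM in the knockout, a difference of 0.96 ± 0.31 (SE; adjusted p = 0.386 by limma). Idi1, an isomerase of the isoprenoid steps, was at 6.41, 3.92 and 2.67 FPKM in wild type and 10.1, 7.28 and 8.52 FPKM in the knockout, and the difference was 0.90 ± 0.24 (SE; adjusted p = 0.287 by limma). In both genes the lowest knockout library was above the highest wild-type library, which was replicate 1, and wild-type replicate 3 was lowest. For Hmgcs1, a synthase early in the pathway, the levels were 23.2, 19.0 and 11.5 FPKM in wild type and 40.3, 25.6 and 30.3 FPKM in the knockout (0.84 ± 0.27, SE; adjusted p = 0.386 by limma). Insig1, which retains the sterol sensor in the endoplasmic reticulum and is itself a target of the pathway, was at 23.5, 21.0 and 17.5 FPKM in wild type and 34.4, 27.1 and 28.9 FPKM in the knockout. The liver X receptor targets Abca1 and Abcg1, which export cholesterol, had overlapping groups, with differences of -0.27 ± 0.22 and -0.03 ± 0.19 (SE). None of the 8 genes passed, 8 of 21 were also counted after both rescalings, and the median of the list was 0.20. That median was 0.36 without wild-type replicate 1, 0.09 without replicate 2 and 0.18 without replicate 3.

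T cell marker genes were lower in level in the knockout in every tested member of their list, although none passed over all genes. Of the 22 T cell markers 15 reached the minimum level, and in all 15 the groups did not overlap with the knockout lower, against 7.34% of all tested genes. The median difference was -0.77, and it lay between -0.85 and -0.67 when any 1 of the 6 PBS libraries was left out. The 22 markers summed to 166, 175 and 156 FPKM in wild type and 120.4, 93.5 and 108 FPKM in the knockout. Cd3g, a chain of the T cell receptor complex (chr9:44969572-44980431), was at 6.35, 8.45 and 9.41 FPKM in wild type and 4.49, 2.54 and 2.15 FPKM in the knockout (-1.19 ± 0.21, SE; adjusted p = 0.0813 by limma). Cd8b1, a chain of the coreceptor of cytotoxic T cells, was at 2.80, 4.66 and 1.93 FPKM in wild type and 1.04, 0.921 and 0.644 FPKM in the knockout (-1.10 ± 0.23, SE; adjusted p = 0.139 by limma). Cd4, the coreceptor of helper T cells, was at 1.86, 2.40 and 2.77 FPKM in wild type and 1.40, 0.708 and 0.802 FPKM in the knockout (-0.77 ± 0.18, SE; adjusted p = 0.188 by limma). Knockout replicate 1 was the highest knockout library in these 3 genes. Il7r, the receptor subunit for the survival factor of naive T cells, was at 4.01, 9.90 and 6.01 FPKM in wild type and 3.41, 2.04 and 2.09 FPKM in the knockout, with wild-type replicate 2 the highest.

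Of the 7 T cell markers under the minimum level, Cd247, Bcl11b, Icos, Skap1 and Trat1 were also lower in every knockout library, while the groups of Cd8a and Ubash3a overlapped. The highest T cell marker, Cd2, which B cells and natural killer cells can also carry, differed least (-0.34 ± 0.20, SE), at 104, 86.0 and 87.9 FPKM in wild type and 77.2, 62.8 and 78.9 FPKM in the knockout. In unsorted lavage, fewer cells of a type and less RNA of these genes per cell cannot be told apart.

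Klrd1, the chain that pairs with inhibitory and activating natural killer receptors (chr6:129591782-129598775), was at 2.22, 3.93 and 2.79 FPKM in wild type and 1.13, 0.973 and 1.06 FPKM in the knockout. It fell to 35.5% of the wild-type mean (-0.93 ± 0.15, SE; adjusted p = 0.0479 by limma). Its group means were 2.98 FPKM in wild type and 1.06 FPKM in the knockout under PBS, and 0.564 and 0.405 FPKM under LPS. Klrd1 thus reached the minimum mean for testing through the wild-type PBS libraries, and it did not pass with no filter on low values. Of the 20 natural killer and cytotoxic markers 11 were tested, 1 passed as lower (0.0915% of all tested genes), and in 5 the groups did not overlap with the knockout lower (Klrd1, Klrb1c, Klrk1, Nkg7 and Il2rb), against 7.34% of all tested genes. Nkg7, a protein of cytotoxic granules, was at 17.1, 28.2 and 12.9 FPKM in wild type and 10.1, 9.81 and 7.14 FPKM in the knockout (-0.97 ± 0.25, SE; adjusted p = 0.248 by limma). Il2rb, the receptor subunit shared by interleukins of lymphocytes, was at 10.1, 12.7 and 8.396 FPKM in wild type and 6.54, 5.31 and 5.51 FPKM in the knockout (-0.73 ± 0.19, SE; adjusted p = 0.248 by limma). The granzyme genes Gzma and Gzmb overlapped, because wild-type replicate 3, at 3.79 and 5.08 FPKM, lay among the knockout libraries for Gzma and below them for Gzmb. Ccl5, a chemokine of cytotoxic cells and macrophages, had the opposite sign (1.005 ± 0.36, SE; adjusted p = 0.449 by limma).

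**Figure D4:**
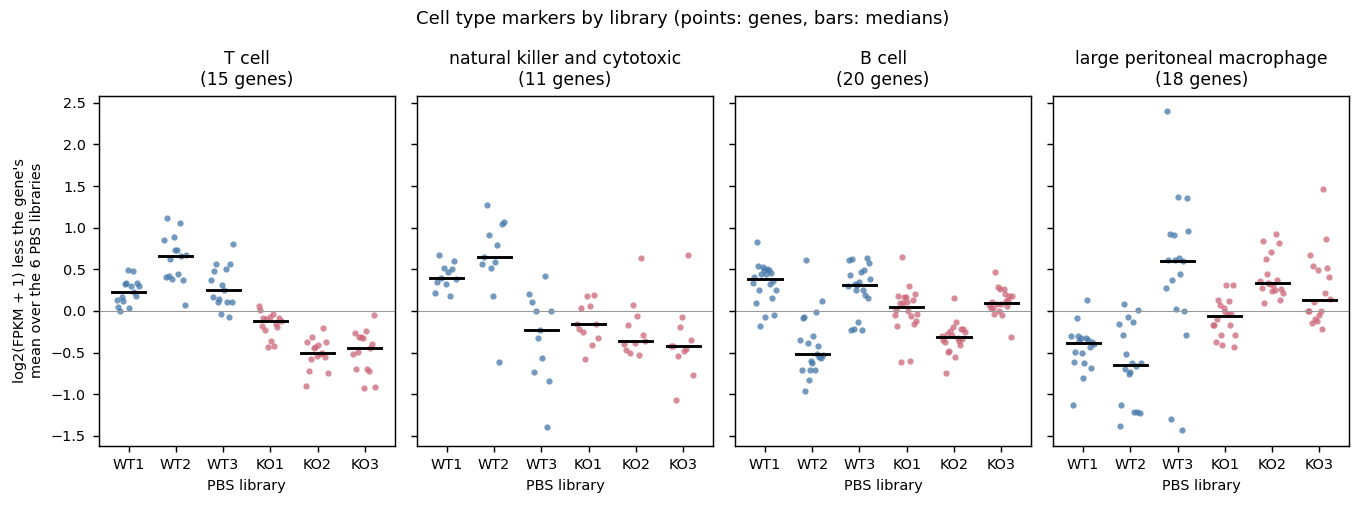
Tested markers of 4 cell types in the 6 PBS libraries, as log2(FPKM + 1) less the gene's mean over those libraries; each point is a gene and each bar the median of the list in that library, with WT for wild type and KO for knockout. The T cell medians of the 3 knockout libraries lie below those of the 3 wild-type libraries, and the B cell and macrophage medians of the groups overlap.

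In the other marker lists most genes had overlapping groups, while some summed levels did not overlap. Over all tested genes, 7.34% were lower and 6.04% higher without overlap. The difference was below 0 in 5392 and above 0 in 4448 of all 9841 tested genes, with or without overlap. Of 20 B cell markers tested, 1 was lower without overlap (Cd5, which T cells also carry) and none higher, and their summed level was 818 to 1613 FPKM in wild type and 961 to 1327 FPKM in the knockout. In the large peritoneal macrophage list of 18 genes, 3 were higher without overlap (Lbp, Rarb and Saa3; 6.04% of all tested genes) and none lower, and 15 of 18 differences were above 0. Their summed level was 9868 to 12699 FPKM in wild type and 14859 to 21273 FPKM in the knockout, with no overlap. Without Saa3, an acute phase protein gene, the sums were 3409 to 6463 FPKM in wild type and 5689 to 8672 FPKM in the knockout, which overlapped. Gata6, the factor that defines these macrophages, was at 17.0, 18.8 and 25.8 FPKM in wild type and 18.8, 27.5 and 21.2 FPKM in the knockout. Their scavenger receptor Timd4 was at 82.7, 47.4 and 111 FPKM in wild type and 109, 198 and 204 FPKM in the knockout (1.10 ± 0.33, SE; adjusted p = 0.356 by limma), overlapping through wild-type replicate 3 and knockout replicate 1. The macrophage markers Tgfb2, Garnl3 and Vsig4 were highest in wild-type replicate 3, where Tgfb2 was 66.5 FPKM against at most 14.5 FPKM in the other 5 libraries. The macrophage list's median was 0.22 with that library, 0.68 without it and 0.05 without wild-type replicate 2. Of 19 mature neutrophil genes tested 2 were lower without overlap (G0s2 and Hcar2; 7.34% of all tested genes), and the median was -0.46. S100a8, a subunit of calprotectin, was at 1477, 1224 and 907 FPKM in wild type and 1292, 474 and 519 FPKM in the knockout, with knockout replicate 1 in the range of wild type. Of 10 tested genes of neutrophil granules 1 was lower (Ngp) and 1 higher (Cebpe) without overlap (7.34% and 6.04% of all tested genes). Ngp was at 1.71, 2.54 and 1.72 FPKM in wild type and 0.445, 0.0753 and 0.559 FPKM in the knockout. Lcn2, which sits in the same granules as lactoferrin, differed by 0.74 ± 0.45 and Cd177 by -0.43 ± 0.33 (SE), and neither passed. All 12 tested genes of MHC class II presentation had a difference below 0, with a median of -0.61, or -0.32 without wild-type replicate 3. The groups did not overlap in 2 of them (H2-Ab1 and Cd74; 7.34% of all tested genes were lower without overlap), and none passed. Their summed level was 4736 to 6033 FPKM in wild type and 2688 to 4423 FPKM in the knockout. Markers of small peritoneal macrophages and dendritic cells, which are rich in these genes, had 9 of 10 differences below 0, a median of -0.52 (-0.31 without wild-type replicate 3) and 1 gene lower without overlap (Irf4), while their sums overlapped. Their part in the MHC class II values was not tested. Plasma cell markers had 6 of 6 tested differences below 0. They summed to 175 to 207 FPKM in wild type and 158 to 169 FPKM in the knockout, without overlap. Eosinophil markers summed to 25.9 to 36.3 FPKM in wild type and 18.5 to 22.7 FPKM in the knockout, also without overlap. Only 2 of these 9 markers were tested, and Epx and Prg3 were at 0 in all 6 PBS libraries. Most of the eosinophil sum was Ear2, with means of 18.6 FPKM in wild type and 12.9 FPKM in the knockout. Markers of mesothelium, adipocytes and pancreatic acini were near 0, summing to at most 5.30 FPKM for mesothelium and 1.46 FPKM for the other cells. Whether a different mix of cells takes part in the 11 calls was not tested.

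Chemokine and cytokine genes of activated macrophages did not pass, and more of them had a difference below 0 than above it. It was below 0 in 18 of 22 tested chemokine genes and 20 of 27 tested inflammatory genes, against 5392 of all 9841 tested genes. In the chemokine list 22 of 26 genes were tested, and 5 were lower (Ccl2, Ccl4, Ccl12, Cxcl3 and Ppbp) and 1 higher (Ccl9) without overlap (7.34% and 6.04% of all tested genes), with a median of -0.45. That median was -0.69 without wild-type replicate 3 and -0.23 without replicate 2. Ppbp, also on the platelet marker list, was at 0.690, 0.920 and 0.519 FPKM in wild type and 0.313, 0.389 and 0.337 FPKM in the knockout (adjusted p = 0.857 by limma). It reached the minimum mean through wild-type LPS replicate 2 (2.79 FPKM) and knockout LPS replicate 1 (5.11 FPKM). Ccl4, a chemokine of macrophages and lymphocytes (chr11:83662584-83664683), was at 90.3, 94.9 and 79.95 FPKM in wild type and 58.6, 39.99 and 35.6 FPKM in the knockout (-0.996 ± 0.17, SE; adjusted p = 0.0694 by limma). Cxcl3, which attracts neutrophils, was at 92.6, 116 and 52.3 FPKM in wild type and 26.5, 44.8 and 13.1 FPKM in the knockout (-1.68 ± 0.39, SE; adjusted p = 0.188 by limma). Cxcl13, the B cell attractant that peritoneal macrophages make, stood on the other side, at 1684, 659.7 and 572 FPKM in wild type and 1674, 2916 and 4244 FPKM in the knockout (1.67 ± 0.40, SE; adjusted p = 0.206 by limma), with overlap through replicate 1 of both groups. In the list of inflammatory cytokines and NF-kB targets 27 of 33 genes were tested, and the median was -0.16. Without overlap, 3 were lower (Csf1, Ptgs2 and Il1b) and 1 higher (Saa3), against 7.34% and 6.04% of all tested genes. Saa3 was at 7856, 8834 and 3406 FPKM in wild type and 9171, 12926 and 12123 FPKM in the knockout (0.87 ± 0.32, SE; adjusted p = 0.460 by limma). Csf1, the macrophage growth factor, was at 82.7, 84.5 and 60.1 FPKM in wild type and 47.0, 29.0 and 28.5 FPKM in the knockout (-1.12 ± 0.22, SE; adjusted p = 0.122 by limma). The prostaglandin synthase Ptgs2 was at 13.7, 12.6 and 7.02 FPKM in wild type and 5.89, 4.38 and 3.44 FPKM in the knockout (-1.09 ± 0.27, SE; adjusted p = 0.243 by limma). Il1b was at 174, 149 and 99.3 FPKM in wild type and 91.2, 57.6 and 47.0 FPKM in the knockout, the knockout being lower in each library. Tnf was at 38.6, 36.9 and 21.4 FPKM in wild type and 33.7, 17.6 and 14.2 FPKM in the knockout and overlapped.

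On the list compiled as negative regulators of Toll signalling 22 genes were tested, of which Pdcd4 passed as lower (0.0915% of all tested genes). Pdcd4 counts here by its place on the list, and whether it restrains Toll signalling in these cells was not tested. Without overlap, 4 were lower (Pdcd4, Cish, Socs1 and Cyld; 7.34% of all tested genes) and 2 higher (Irak3 and Tollip; 6.04%). Cish, a feedback inhibitor of cytokine signalling through Stat proteins (chr9:107296026-107302784), was at 12.7, 10.7 and 7.94 FPKM in wild type and 5.03, 3.21 and 2.13 FPKM in the knockout (-1.39 ± 0.24, SE; adjusted p = 0.0667 by limma). Its relative Socs1 was at 27.6, 21.6 and 15.6 FPKM in wild type and 10.6, 7.95 and 9.69 FPKM in the knockout (-1.09 ± 0.25, SE; adjusted p = 0.180 by limma). For neither did the groups overlap. Socs3 was at 186, 184 and 89.7 FPKM in wild type and 153, 122 and 141 FPKM in the knockout and overlapped, and so did the NF-kB inhibitors Nfkbia and Tnfaip3.

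The genes of at least 5 FPKM that came next in order of p without passing, with no overlap of the groups, were 10 higher and 10 lower. Their adjusted p lay between 0.0667 and 0.188 by limma. Higher in level were Cdc14b, Slc9a3r2, Nipa2, Serpinb2, P2rx1, Elmo2, Cpne8, Tram2, Arhgap23 and Plekhg3. Serpinb2, an inhibitor of plasminogen activators that peritoneal macrophages make in quantity, was at 663, 519 and 259 FPKM in wild type and 1098, 1697 and 1038 FPKM in the knockout (1.48 ± 0.30, SE; adjusted p = 0.126 by limma). P2rx1, a cation channel opened by extracellular ATP, was at 4.13, 2.77 and 4.56 FPKM in wild type and 7.13, 14.02 and 8.14 FPKM in the knockout (1.13 ± 0.24, SE; adjusted p = 0.167 by limma). Cdc14b, a protein phosphatase, was at 5.33, 4.98 and 4.77 FPKM in wild type and 9.87, 12.2 and 8.09 FPKM in the knockout (0.86 ± 0.15, SE; adjusted p = 0.0667 by limma). Elmo2, Arhgap23 and Plekhg3 act in signalling through small GTPases, with differences of 0.58, 0.62 and 0.58. Lower in level, beside Cish, Ccl4, Cd3g and Csf1, were Mapkapk3, Serpina3g, Entpd1, Pnpla7, Lrrfip2 and Arid5b. Entpd1, the ectoenzyme that degrades extracellular ATP, was at 25.0, 24.4 and 24.1 FPKM in wild type and 15.4, 11.3 and 10.3 FPKM in the knockout (-0.95 ± 0.19, SE; adjusted p = 0.122 by limma). Mapkapk3, a kinase of the stress-activated kinase cascade, was at 12.1, 9.88 and 12.0 FPKM in wild type and 7.97, 5.63 and 5.80 FPKM in the knockout, with no overlap. Serpina3g, a serine protease inhibitor of activated leukocytes, was at 27.3, 43.2 and 21.8 FPKM in wild type and 11.6, 9.54 and 15.5 FPKM in the knockout.

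The same genes were then read in the LPS libraries, which share no library with the PBS groups. There the knockout differed from wild type in 0 of 9841 genes by limma (smallest adjusted p = 0.124; 744 genes had an unadjusted p under 0.05). Of the 11 genes, 6 had the same sign of difference under LPS, and in 3 the LPS groups were apart in the same direction. Over all 9841 tested genes these counts were 4733 and 680. Across all 9841 genes, which are not independent replicates, the differences under PBS and under LPS had a Pearson correlation of -0.06 and a Spearman correlation of -0.05. The difference between the genotype effects passed in 4 of 9841 genes (0.0406%), and they were Egr1, Hbegf, Egr2 and Csrnp1. It contains the PBS difference by which these genes had passed, so it is not separate support for that difference. With the replicate number as a block, 0 genes passed it. Egr1 was at 8.98, 9.98 and 8.95 FPKM in wild type and 13.8, 13.9 and 18.6 FPKM in the knockout under LPS, the reverse order of PBS, and the genotype difference was higher by 1.59 ± 0.20 (SE; adjusted p = 0.0344 by limma) than under PBS. Hbegf was at 1.59, 1.73 and 1.38 FPKM in wild type and 2.04, 2.86 and 2.52 FPKM in the knockout, again in reverse order, with 1.39 ± 0.18 (SE; adjusted p = 0.0344 by limma). Csrnp1 was at 9.95, 10.1 and 11.1 FPKM in wild type and 10.8, 13.3 and 10.7 FPKM in the knockout, where the groups overlapped, with 1.15 ± 0.16 (SE; adjusted p = 0.0446 by limma). Egr2 was under 1 FPKM in all 6 LPS libraries, at 0.462, 0.403 and 0.461 FPKM in wild type and 0.450, 0.596 and 0.665 FPKM in the knockout, with 1.33 ± 0.19 (SE; adjusted p = 0.0446 by limma). In that range the added 1 FPKM holds any difference near 0.

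Ch25h was far higher under LPS, at 21.4, 27.0 and 19.1 FPKM in wild type and 18.1, 23.1 and 18.3 FPKM in the knockout, and its groups overlapped there. Pdcd4 was at 41.6, 42.4 and 37.9 FPKM in wild type and 44.5, 41.0 and 25.6 FPKM in the knockout under LPS, with overlap. Arntl was at 1.06, 1.19 and 1.19 FPKM in wild type and 1.08, 0.844 and 1.15 FPKM in the knockout, also with overlap. Cited2 was at 24.5, 26.3 and 29.8 FPKM in wild type and 18.6, 23.9 and 17.4 FPKM in the knockout, every knockout library being below every wild-type library. Dagla was at 0.504, 0.505 and 0.474 FPKM in wild type and 0.815, 0.656 and 0.716 FPKM in the knockout, all under 1 FPKM, with the knockout above wild type. The immediate early list had a median difference of 0.19 under LPS, against -0.38 under PBS. The T cell list had -0.23, against -0.77. Several genes that came close under PBS had the opposite sign under LPS without passing either test, among them Cish (0.57), Ccl4 (0.61), Csf1 (0.78) and Entpd1 (0.68), where the adjusted p of the test between treatments by limma was 0.0732 for Cish, 0.0524 for Ccl4, 0.0691 for Csf1 and 0.0691 for Entpd1.

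The lists closest to the known roles of lactoferrin held no gene that passed. Of 24 tested iron handling genes none passed, 2 were higher (Slc11a2 and Ireb2) and 1 lower (Slc48a1) without overlap, near the 6.04% and 7.34% of all tested genes, and the median was 0.10. Tfrc, the transferrin receptor that iron-poor cells raise, was at 14.1, 10.2 and 6.05 FPKM in wild type and 12.6, 9.75 and 12.0 FPKM in the knockout, with a difference of 0.23 ± 0.23 (SE). Fth1 and Ftl1, the ferritin chains, differed by 0.10 ± 0.37 and -0.36 ± 0.33 (SE), both overlapping. Of the genes for receptors and partners of lactoferrin, Lrp1 (0.10 ± 0.28) and Cd14 (0.20 ± 0.29) overlapped (differences with SE). Cxcr4, a chemokine receptor on the same list, was lower without overlap, at 114, 128 and 74.8 FPKM in wild type and 56.9, 49.8 and 65.8 FPKM in the knockout (-0.84 ± 0.24, SE; adjusted p = 0.336 by limma). Of 24 LPS sensing genes none passed, 3 were higher (Lbp, Irak3 and Ikbkb) and 1 lower (Tlr2) without overlap (6.04% and 7.34% of all tested genes), and the receptor gene Tlr4 differed by -0.06 ± 0.19 (SE). The type I interferon list had a median of 0.27 and 34 of 36 differences above 0. Only 1 of the 36 genes was higher without overlap (Ifitm3; 6.04% of all tested genes), and knockout replicate 3 was the highest library for Ifit1, Ifit2, Ifit3 and Cmpk2. None of the 32 ribosomal protein genes, 22 genes of oxidative phosphorylation or 23 cell cycle genes tested had groups that did not overlap. Even so, 31 of the 32 ribosomal protein genes had a difference below 0, with a median of -0.11.

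**Figure D5:**
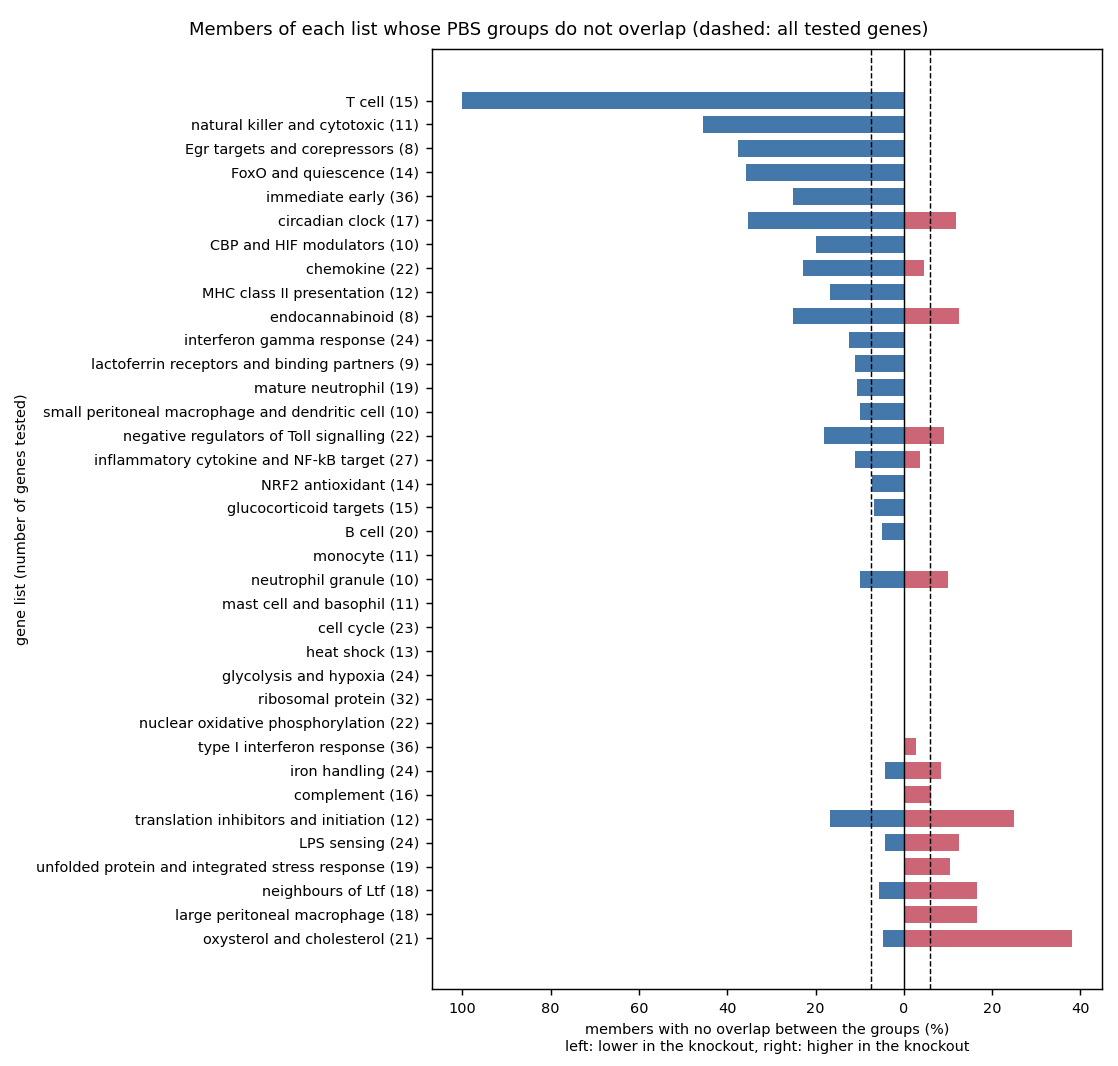
Share of the tested members of each gene list whose 3 wild-type and 3 knockout PBS libraries do not overlap, in percent, with the knockout lower to the left and higher to the right; the number of tested genes stands in brackets, lists with at least 8 tested genes are drawn, and dashed lines give the shares over all 9841 tested genes (7.34% and 6.04%). The T cell list reaches 100% to the left and the oxysterol and cholesterol list 38.1% to the right.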

How the data were processed

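RNA from unsorted peritoneal lavage cells was sequenced in 12 libraries, 3 for each genotype and treatment. The deposited values, 1 per gene and library, were taken as FPKM made by the authors, although the files name no unit; per the submitters' processing notes TopHat, Cufflinks, HTSeq, DESeq and GRCm38 were used, with no roles given. The labels state no annotation, strand setting or filter. Of 21878 entries, 27 with symbols turned into dates were left out. Of the remaining 21851 genes, 5228 were at 0 in every library and 9841 (45.0%) were tested, those whose mean across all libraries reached 1 FPKM. FPKM are not counts, so limma (3.58.1, R 4.3.3, statmod 1.5.0) was fitted to log2(FPKM + 1) with 4 group means, 8 residual degrees of freedom, a trended prior and robust moderation, and p-values were adjusted by Benjamini-Hochberg over all tested genes. The code was tested on simulated data. Groups did not overlap where all 3 libraries of one lay above all 3 of the other.

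Genes were named by rule: Ltf, the genes that passed, the 10 of smallest p in each direction among those that did not pass, without overlap and with a mean of at least 5 FPKM in the higher group, and the members of each list that differed most without overlap or had the highest level. Some items that the rule covers, 1 of the genes that passed among them, are not reported here. Other list members were named after their values were seen. The comparison, lists and tests were chosen with earlier results of these data known. Positions are from GENCODE M21 (GRCm38), matched by symbol for 9549 tested genes (97.0%). Alternatives covered the pseudocount, filter, scaling, libraries fitted, replicate block, array weights and each library left out. Leaving out replicate 2 of both PBS groups, the rescaled list counts and the macrophage sum without Saa3 were chosen after seeing the data. Figures were drawn with matplotlib 3.10.9 in Python 3.11.15.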

Additional observations from a re-analysis of the deposited data

Results flagged for a closer look

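In 4 genes the difference between knockout and wild type itself differed between the LPS and the PBS libraries, by the test of that difference in limma across all 12 libraries. On the log2(FPKM + 1) scale the difference under LPS was above that under PBS by 1.59 for Egr1 (adjusted p = 0.0344 by limma), by 1.39 for Hbegf (adjusted p = 0.0344 by limma), by 1.33 for Egr2 (adjusted p = 0.0446 by limma) and by 1.15 for Csrnp1 (adjusted p = 0.0446 by limma). All 4 are immediate early genes that were lower in the knockout under PBS. That PBS difference is part of the test, which is therefore not separate support for it. No gene passed the test with the replicate block, and it was not repeated with single libraries left out. Egr2 was under 1 FPKM in every LPS library, so its value rests on the PBS libraries.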

How the results depend on the processing

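All 11 genes kept their direction under every alternative in which they were tested, but the number that passed depended on the choices. It was 4 (0 higher, 4 lower) with a minimum mean of 5 FPKM, where 5 of the 11 were tested, and 7 (1 higher) with median-of-ratios scaling. It was 50 (12 higher, 38 lower) with array weights, all 11 included. It was 0 in both directions with only the 6 PBS libraries, where the smallest adjusted p by limma was 0.223 and 638 genes had an unadjusted p under 0.05. A pseudocount of 0.1 gave 10, of which 1 was higher. Without replicate 2 of both PBS groups it was 1 (0 higher, 1 lower). Leaving out each PBS library in turn gave 0 to 39 genes, 0 to 14 higher and 0 to 25 lower. With no filter on low values 9 passed, and 4 of the 11 were among them. Over the genes chosen by the naming rule, 1814 alternative values kept sign and side of the threshold, 31 gained and 90 lost a call. A further 22 changed sign, in 12 genes whose difference passed neither way. With array weights these were Eno1 (-0.00644), Atp5b (-0.0164) and Atp5a1 (-0.0166), and without replicate 2 of both PBS groups Chil3 (0.0729), F13a1 (0.0705), Srgn (0.106), Il1rl1 (-0.0907) and Atp5a1 (-0.0256). With each PBS library left out in turn the differences ran from -0.937 to 0.177 for Chil3, -0.350 to 0.132 for Srgn, -0.0197 to 0.415 for Il1rl1, -0.443 to 0.232 for Pecam1, -0.104 to 0.0354 for Pcna, -0.517 to 0.0981 for Hspa8, -0.0226 to 0.305 for Ldha, -0.00840 to 0.138 for Eno1 and -0.213 to 0.0402 for Rps23. The cause of these differences was not tested.

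The replicate numbers are shared by the groups in the labels, but nothing there says that they mark a shared day or litter. Deviations of same-numbered PBS libraries correlated at 0.137, 0.0845 and 0.0991, and each library correlated best with its own number, as a hint from the data only. With the replicate block 2 genes passed (0 higher, 2 lower), Ch25h and Egr2, and 0 genes passed the test of the difference between treatments. With 3 libraries a group, unknown depth and genes near 1 FPKM among the 11, small differences could not be detected.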
